A study of Rattus norvegicus with 232 samples.

Results

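BN-Lx/Cub and BN/NHsdMcwi are lines of the Brown Norway rat, and their brain RNA was compared here gene by gene. The comparison used 7 of the 232 libraries of the series, 4 of BN-Lx/Cub and 3 of BN/NHsdMcwi, chosen by strain label, and they came from 3 animals of each line. BN-Lx/Cub replicate 3 was sequenced as a pair of libraries, which were averaged to 1 animal. The series profiles whole brain of untreated rats of the Hybrid Rat Diversity Panel by stranded RNA sequencing of total RNA depleted of ribosomal RNA. The BN-Lx/Cub samples are labelled male. The BN/NHsdMcwi labels give no sex, while the text of the series describes males. The Y-linked genes Eif2s3y, Kdm5d and Uty lay between 10.07 and 11.76 on the log2 scale in all 6 animals. Of the other Y-linked genes checked, Usp9y lay between 4.93 and 5.60 and Ddx3y between 2.77 and 3.12. Neither line carried a transgene or received a treatment, and the labels used here give no age.

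BN-Lx/Cub is a Brown Norway line that carries the polydactyly-luxate variant in Zbtb16, a gene for a zinc finger repressor of limb and germ cell development. It is, with SHR/OlaIpcv, a founder of the HXB/BXH recombinant inbred strains, in which the alleles of both founders are fixed in different combinations. BN/NHsdMcwi is the Brown Norway line from which the rat reference genome was built. Sublines of 1 inbred strain share most of their genome by descent and differ through later mutation, residual heterozygosity at the time they were split, and introduced segments, so a comparison of their brains asks which transcripts differ between animals that are otherwise near in genotype.

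The 2 lines shared no batch. The sequencing batch in the labels was 3, 4 or 6 for BN-Lx/Cub and 16 or 17 for BN/NHsdMcwi, so a difference between the lines and a difference between those batches cannot be told apart within the 6 animals. Libraries of 1 other strain, SHR/OlaIpcv, were made in all 5 of these batches. In the gene table used here its 3 libraries of batches 3, 4 and 6 come from the animal labelled replicate 1, and its 3 libraries of batches 16 and 17 come from replicates 1 and 4. The difference between these SHR/OlaIpcv libraries (old minus new batches) is given below beside the genes described. The paper reports that brains of BN-Lx/Cub and SHR/OlaIpcv were kept in liquid nitrogen and sent from a colony in Prague. It does not describe BN/NHsdMcwi animals. Colony and tissue handling may therefore differ between the lines as well, which the SHR/OlaIpcv libraries do not measure, and their part was not tested. Every gene was also fitted a further time, library by library, with batch as a term next to strain. Values are on the log2 scale of the deposited table, a difference is BN-Lx/Cub minus BN/NHsdMcwi on that scale with its standard error, and adjusted p is from limma, adjusted by the Benjamini-Hochberg method over 20859 genes.

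The library of BN-Lx/Cub animal 1 stood apart from the others. The median absolute difference between it and each of the other 6 libraries was 0.209 to 0.317, against 0.109 to 0.212 for the 15 pairs without it. Library medians lay between 8.23 and 8.35. The brain identity of the samples was checked by defining markers: Snap25, a synaptic membrane protein of neurons, was at 15.48 to 15.75 in the 6 animals, and Mbp, a structural protein of myelin, at 16.96 to 17.35.

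Without batch in the model, 58 of 20859 genes passed an adjusted p of 0.05, which is 0.278% of those tested. The count was 20 without BN-Lx/Cub animal 1, 328 without BN-Lx/Cub animal 2, 23, 26 and 35 without BN/NHsdMcwi animals 1, 2 and 3, and 15 in a fit of the 6 animals alone. BN-Lx/Cub was higher in 26 of them (0.125%) and lower in 32 (0.153%). With batch in the model 58 genes were called as well (0.278%), 31 higher and 27 lower, but only 13 genes were called in both fits with the same sign (0.0623%), a number that was 84 without BN-Lx/Cub animal 2 and 6 to 8 without any other animal. These were Clca1, Acer2, Tnfsf10, Fam227a and 3 genes with locus numbers, all higher in BN-Lx/Cub, and Trim6, Itga11, Mapk4 and 3 further locus numbers, all lower. The differences ranged from 0.63 to 1.99 in the 7 higher genes and from -0.41 to -2.18 in the 6 lower ones. Among all genes the median absolute difference was 0.139, and the animals of the lines did not overlap in 18.9% of genes. The p-values rest on the spread between animals within strains, pooled over all 74 strains, and in whole brain fewer cells of a type and less RNA per cell cannot be told apart.

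Promoter sequences are shown for the 3 named protein-coding genes with the lowest adjusted p so that the sequence next to the genes the comparison turns on can be read. Each is the 250 bases before the annotated start in RefSeq GRCr8, an assembly of BN/NHsdMcwi itself, written 5′ to 3′ on the strand of the gene, with capitals for CCAAT or GGGCGG on either strand. The Clca1 promoter is chr2:236624715-236624964 on the minus strand, the Trim6 promoter chr1:168095369-168095618 on the plus strand, and the Acer2 promoter chr5:106437598-106437847 on the plus strand.
Clca1: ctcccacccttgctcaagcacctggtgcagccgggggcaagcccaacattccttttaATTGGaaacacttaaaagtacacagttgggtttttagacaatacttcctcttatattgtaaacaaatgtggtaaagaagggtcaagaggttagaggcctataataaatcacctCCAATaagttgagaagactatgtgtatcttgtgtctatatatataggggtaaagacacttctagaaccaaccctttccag
Trim6: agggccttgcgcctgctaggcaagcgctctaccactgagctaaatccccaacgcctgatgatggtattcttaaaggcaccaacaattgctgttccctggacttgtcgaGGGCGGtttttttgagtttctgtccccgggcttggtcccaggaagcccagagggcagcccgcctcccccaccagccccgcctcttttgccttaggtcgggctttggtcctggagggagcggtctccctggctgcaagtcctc
Acer2: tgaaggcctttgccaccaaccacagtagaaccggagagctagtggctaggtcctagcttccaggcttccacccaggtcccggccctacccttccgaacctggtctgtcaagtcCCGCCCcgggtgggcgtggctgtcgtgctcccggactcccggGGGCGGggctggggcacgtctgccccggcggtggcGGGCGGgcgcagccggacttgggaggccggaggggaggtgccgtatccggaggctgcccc
Clca1 held 2 matches to CCAAT and none to GGGCGG, Trim6 1 match to GGGCGG, and Acer2 3. All 7 genes with a symbol matched a promoter entry. Of these 7, CCAAT was found in 1 and GGGCGG in 4, the others being Itga11 and Fam227a, against 34% and 30.5% of 33469 promoters of the same length. TATAAA was in none of the 7 windows and in 12.9% of all of them. The sequence of BN-Lx/Cub at these sites was not analysed here.

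Acer2 had the lowest adjusted p in the fit with batch. It encodes an alkaline ceramidase of the Golgi apparatus that splits ceramide into sphingosine and a fatty acid, and lies on chromosome 5 from 101391830 to 101442615, plus strand, in the deposited annotation, whose build is not given in the sources used here. Its level was 8.57, 8.60 and 8.43 in BN-Lx/Cub animals 1 to 3 and 7.95, 7.82 and 7.81 in BN/NHsdMcwi animals 1 to 3. Every BN-Lx/Cub animal was above every BN/NHsdMcwi animal, and the pair of libraries of BN-Lx/Cub animal 3 gave 8.43 and 8.42. Acer2 rose by 0.67 ± 0.116 (adjusted p = 0.000149), and by 0.90 ± 0.137 with batch in the model (adjusted p = 2.47e-05). Between SHR/OlaIpcv batches it differed by -0.28 (adjusted p = 0.403). In a fit of the 6 animals alone its adjusted p was 0.0995, and in the v6 Ensembl table its difference was 0.47 (adjusted p = 0.114).

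Tnfsf10, on chromosome 2 from 110168359 to 110273213, plus strand, encodes TRAIL, a ligand of death receptors that interferon can induce. It was at 7.82, 7.67 and 7.65 in BN-Lx/Cub and at 7.03, 6.99 and 7.14 in BN/NHsdMcwi. The groups were separated by more than the spread within either. It rose by 0.66 ± 0.128 (adjusted p = 0.00157; with batch 0.86 ± 0.159, adjusted p = 0.00187), while SHR/OlaIpcv differed by -0.26. Its adjusted p was 0.104 in the 6 animals alone and 0.139 in the table of reconstructed genes. BN/NHsdMcwi had the lowest mean of all 74 strains for Tnfsf10, at 7.05, and BN-Lx/Cub lay near the SHR/OlaIpcv mean, at 7.71 against 7.77.

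Clca1 encodes a secreted regulator of calcium-activated chloride currents known from mucus-producing epithelia, and lies on chromosome 2 from 233938677 to 233964369, minus strand. Its level was low in both lines, at 6.42, 6.17 and 6.09 in BN-Lx/Cub against 5.01, 5.06 and 5.13 in BN/NHsdMcwi. The lines did not overlap. Clca1 rose by 1.16 ± 0.178 (adjusted p = 3.04e-05), the lowest adjusted p without batch in the model, and by 1.00 ± 0.201 with batch (adjusted p = 0.00577). SHR/OlaIpcv differed by 0.14 between batches, and its own mean, 4.88, was the lowest of all strains.

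Fam227a, on chromosome 7 from 111172080 to 111216824, minus strand, was at 7.14, 7.23 and 7.12 in BN-Lx/Cub and at 6.54, 6.36 and 6.70 in BN/NHsdMcwi. BN/NHsdMcwi, at a mean of 6.53, was the lowest of the 74 strains here too. The difference of 0.63 ± 0.158 was close to the threshold in both fits (adjusted p = 0.0416 and 0.0477), with -0.25 between SHR/OlaIpcv batches, and it was not called in any of the 6 fits that left out 1 of the 6 animals.

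Without batch in the model, Trim6 had the lowest adjusted p of the genes that were lower in BN-Lx/Cub. It encodes a RING-type ubiquitin ligase that takes part in type I interferon signalling and lies on chromosome 1 from 158683746 to 158696936, plus strand. Its level was 3.83, 3.74 and 4.04 in BN-Lx/Cub and 5.44, 4.89 and 5.10 in BN/NHsdMcwi. All BN-Lx/Cub animals were below all BN/NHsdMcwi animals, although the 2 libraries of BN-Lx/Cub animal 3, at 4.57 and 3.502, differed by more than the 3 animals did. Trim6 fell by 1.27 ± 0.205 on the log2 scale (adjusted p = 6.76e-05), and by 0.97 ± 0.216 with batch (adjusted p = 0.0164). In the table of reconstructed genes Trim6 differed by -2.06 ± 0.512 and did not pass the test (adjusted p = 0.136), while in the v6 Ensembl table it fell by 1.31 ± 0.182 (adjusted p = 1.28e-06). SHR/OlaIpcv differed by -0.26 between batches. BN/NHsdMcwi had the highest mean of all 74 strains for Trim6, at 5.14.

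Itga11, on chromosome 8 from 63105370 to 63256517, plus strand, encodes the alpha 11 subunit of an integrin that binds collagen. It was at 6.64, 7.21 and 6.75 in BN-Lx/Cub and at 7.47, 7.66 and 7.60 in BN/NHsdMcwi. It fell by 0.70 ± 0.167 on the log2 scale (adjusted p = 0.0283), with a difference of -1.045 ± 0.191 with batch (adjusted p = 0.00147) and 0.27 between SHR/OlaIpcv batches. The call rested on BN-Lx/Cub animal 1 among others, since the difference was -0.59 without that animal (adjusted p = 0.573), and it remained in only 1 of the 6 fits that left out an animal. In the table of reconstructed genes Itga11 differed by -1.04 ± 0.249 (adjusted p = 0.1).

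Mapk4, on chromosome 18 from 67510116 to 67778751, minus strand, encodes an atypical MAP kinase also called ERK4. Of the 13 genes it alone combined a symbol with a mean level above the median of all genes, 8.32, which the rule for naming genes required, and the others are described here after their values were seen. It was at 11.55, 11.76 and 11.75 in BN-Lx/Cub and at 12.22, 11.98 and 12.09 in BN/NHsdMcwi, without overlap. It fell by 0.41 ± 0.10 on the log2 scale (adjusted p = 0.0326; with batch -0.57 ± 0.123, adjusted p = 0.0107), against 0.10 between SHR/OlaIpcv batches. Without BN-Lx/Cub animal 1 the difference was -0.34 (adjusted p = 0.59), and it was called in 2 of 6 such fits. Mapk4 did not pass in the table of reconstructed genes (adjusted p = 0.192) or in the v6 Ensembl table (adjusted p = 0.091).

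The other 6 genes carry locus numbers and are given with the class RefSeq lists for them. LOC120095489, a small nucleolar RNA on chromosome 10, had the largest difference. It was at 12.80, 12.60 and 12.58 in BN-Lx/Cub and at 14.71, 15.14 and 14.69 in BN/NHsdMcwi, and BN-Lx/Cub had the lowest mean of all 74 strains. It fell by 2.18 ± 0.453 on the log2 scale (adjusted p = 0.00442; with batch -3.22 ± 0.572, adjusted p = 0.00114). It was called in 5 of the 6 fits that left out an animal, where its adjusted p from limma reached 0.067. Levels of this RNA varied widely between libraries of 1 animal or strain: the libraries of BN-Lx/Cub animal 3 gave 13.41 and 11.75, and the 6 SHR/OlaIpcv libraries 12.89 to 15.17, with a difference of 0.94 between their batches.

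LOC102547718, a long non-coding RNA on chromosome 2, was the highest gain, at 9.80, 9.01 and 10.34 in BN-Lx/Cub against 7.57, 7.71 and 7.90. It rose by 1.99 ± 0.390 (adjusted p = 0.00187; with batch adjusted p = 0.0293), and SHR/OlaIpcv libraries differed by 0.54 between batches. Of these libraries that of batch 6 was at 9.44 and the other 5 at 7.51 to 8.07. The call was lost without BN-Lx/Cub animal 3 (adjusted p = 0.0619) and in the 6 animals alone (adjusted p = 0.0626). It lies 13 measured genes from Tnfsf10 on that chromosome. LOC103691073, a long non-coding RNA on chromosome 1, was at 5.50, 5.29 and 5.45 in BN-Lx/Cub and 4.48, 4.59 and 4.67 in BN/NHsdMcwi, a rise of 0.83 ± 0.165 (adjusted p = 0.00225), against 0.10 between SHR/OlaIpcv batches. LOC100362980, a pseudogene on chromosome 7, was at 7.69, 7.29 and 7.26 against 6.51, 6.54 and 6.68, a rise of 0.84 ± 0.145 (adjusted p = 0.000149), against -0.09 between SHR/OlaIpcv batches. Reads of a pseudogene may come from its parent gene, so that its level is uncertain, and in the v6 Ensembl table, which holds the same 7 libraries, its difference was -0.07. For both LOC103691073 and LOC100362980, BN-Lx/Cub had the highest mean of the 74 strains. Neither was called by limma in the 6 animals alone (adjusted p = 0.0509 and 0.115).

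LOC102549694, a protein-coding entry on chromosome 9, was at 8.26, 8.35 and 8.06 in BN-Lx/Cub and 9.30, 9.05 and 9.31 in BN/NHsdMcwi. It fell by 1.00 ± 0.213 on the log2 scale (adjusted p = 0.00692), against 0.15 between SHR/OlaIpcv batches. It was called in 3 of the 6 fits that left out an animal, and with the batch number of the sample title in the model its adjusted p was 0.112. LOC120097116, without an entry in the gene table used here, was at 5.33, 5.39 and 5.28 against 6.38, 7.31 and 7.03, and fell by 1.57 ± 0.359 (adjusted p = 0.0191), against 0.35 between SHR/OlaIpcv batches. It was called in 2 of those 6 fits, where its adjusted p reached 0.239. Here BN-Lx/Cub was the lowest of all strains, while BN/NHsdMcwi ranked 60 of 74 from the lowest.

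**Figure D1:**
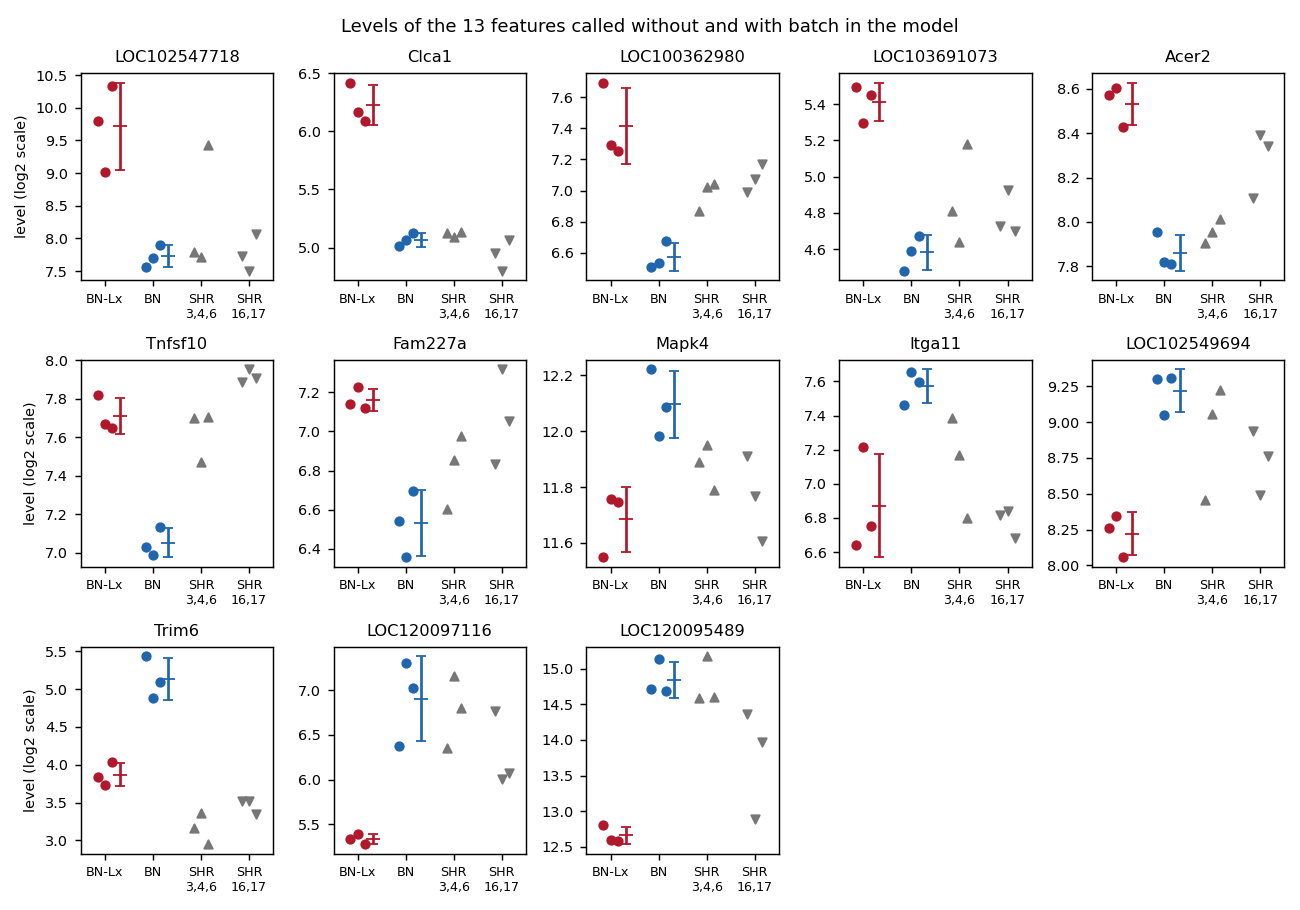
Level on the log2 scale of the 13 genes called without and with batch in the model, 1 panel per gene, with a point for each BN-Lx/Cub and BN/NHsdMcwi animal and for each SHR/OlaIpcv library of batches 3, 4 and 6 and of batches 16 and 17. In every panel the 3 BN-Lx/Cub animals lie wholly above or wholly below the 3 BN/NHsdMcwi animals.

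The SHR/OlaIpcv libraries gave a difference between old and new batches without a change of strain, although the new batches also brought in replicate 4. Between these batches 3 genes passed the test (0.0144%): LOC102550225, LOC679565 and Thbs1, the gene of the matrix protein thrombospondin 1. More genes passed in a fit of those libraries alone, as given in the last section. The number with an unadjusted p under 0.05 was 2128 (10.2%), against 3851 (18.5%) between the lines. The first count is from a fit over libraries and the second from a fit over animals, so they stand side by side only. The median absolute difference was 0.109 between SHR/OlaIpcv batches and 0.139 between the lines, and 16 and 31 genes respectively exceeded 1 on the log2 scale. With SHR/OlaIpcv replicate 1 alone, libraries of 1 animal in both sets of batches, the median was 0.173 and 55 genes exceeded 1, both more than between the lines. This set 3 libraries of the old batches against 1 library of the new, that of batch 16. The difference between the lines averages 3 animals on each side, so these sizes are not like for like. The difference within SHR/OlaIpcv replicate 1 correlated with the difference between the lines across the 20859 genes (r = 0.494, against 0.251 with all 6 SHR/OlaIpcv libraries). This is a description over genes that share libraries and batches. Of the 58 genes called between the lines, 42 moved in the same direction between SHR/OlaIpcv batches (72.4%, against 60.1% of all genes), and in 16 the SHR/OlaIpcv difference was also at least 0.5 times as large (27.6%, against 40.1% of all genes). Of the 13 genes called in both fits, 4 moved in the same direction, and in 0 of them was it that large. The SHR/OlaIpcv libraries also enter the fit with batch, so this last count is fixed in part by how the 13 were chosen.

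The difference between the lines less that between SHR/OlaIpcv batches, tested over 13 libraries in a single contrast, passed for 0 genes at an adjusted p of 0.05 and had an unadjusted p under 0.05 in 1439 (6.9%). The same contrast fitted over all libraries called 7 genes, among them Acer2, Tnfsf10, LOC100362980 and LOC120095489. Without BN-Lx/Cub animal 1 the contrast called 28 genes, 26 of them with a positive value. Only 4 of the 28 were among the genes called between the lines: Acer2, Clca1, Tnfsf10 and LOC100362980. A positive value need not be a higher level in BN-Lx/Cub. Cdhr1 had a contrast of 1.45 in this fit. With all animals it differed by 0.12 between the lines and by -0.97 between SHR/OlaIpcv batches. In the contrast over 13 libraries Acer2 was at 0.90 ± 0.133 (adjusted p = 0.0542) and Tnfsf10 at 0.93 ± 0.137 with the same adjusted p. Clca1 was at 0.97 ± 0.156 (adjusted p = 0.0627).

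**Figure D2:**
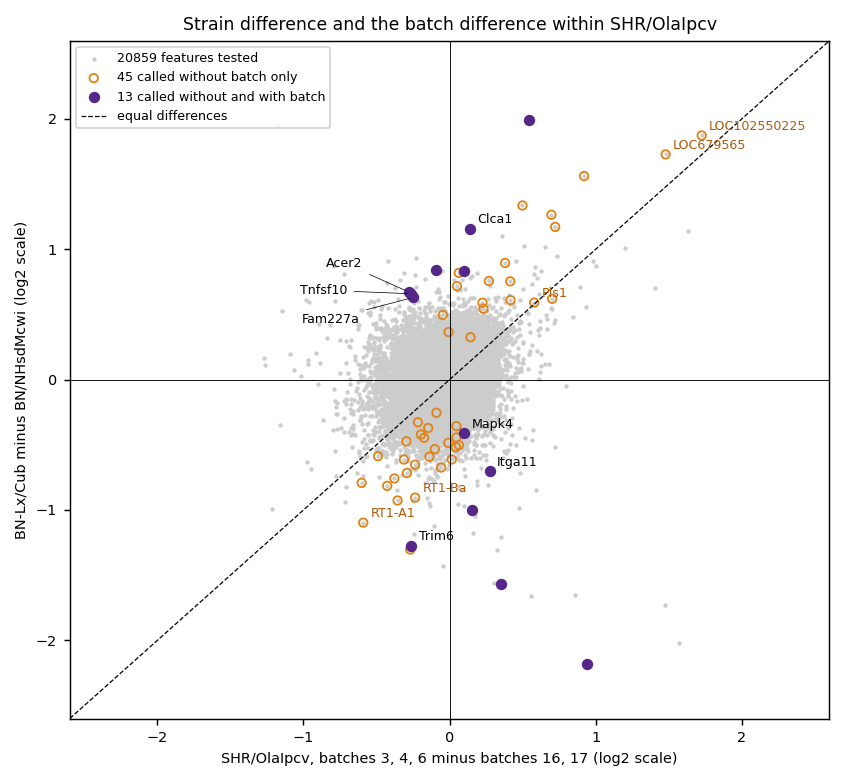
Difference BN-Lx/Cub minus BN/NHsdMcwi (vertical, log2 scale) against the difference between SHR/OlaIpcv libraries of batches 3, 4 and 6 and of batches 16 and 17 (horizontal, log2 scale), with a point for each of 20859 genes. LOC102550225 and LOC679565 lie near the line of equal differences, while Acer2, Tnfsf10 and Fam227a lie on the other side of 0 on the horizontal axis. For Fam227a that place rests mainly on SHR/OlaIpcv replicate 4, at 7.32 and 7.05. Replicate 1 was at 6.83 in batch 16 and at 6.60, 6.85 and 6.98 in batches 3, 4 and 6.

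Of the 58 genes, 45 were called only without batch in the model, 19 higher and 26 lower. The 2 with the largest differences moved nearly as far within SHR/OlaIpcv. LOC102550225 was 1.87 higher in BN-Lx/Cub (adjusted p = 7.23e-05) and 1.73 higher in the old SHR/OlaIpcv batches (adjusted p = 0.0044), and with batch in the model its difference was -0.26. LOC679565 differed by 1.73 between the lines and by 1.48 between SHR/OlaIpcv batches (adjusted p = 0.0236). For these genes line and batch cannot be told apart. Among genes with symbols, Pls1, which bundles actin, was 0.59 higher (adjusted p = 0.0151) and moved by 0.58 in SHR/OlaIpcv.

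Some of the 45 moved little between SHR/OlaIpcv batches and missed the threshold with batch in the model. Tnfrsf11b, which encodes osteoprotegerin, a decoy receptor of the RANK ligand, was at 9.71, 9.21 and 9.20 in BN-Lx/Cub and 9.05, 8.79 and 8.79 in BN/NHsdMcwi. Its difference was 0.50 ± 0.116 (adjusted p = 0.023; with batch 0.48, adjusted p = 0.117), against -0.05 in SHR/OlaIpcv. Slc38a9, a lysosomal amino acid transporter that signals to mTORC1, was 0.36 ± 0.090 higher (adjusted p = 0.0384; with batch 0.40, adjusted p = 0.115). Sstr2, a somatostatin receptor, was at 7.76, 8.19 and 8.12 in BN-Lx/Cub and 8.48, 8.70 and 8.44 in BN/NHsdMcwi, a difference of -0.52 ± 0.127 (adjusted p = 0.0344; with batch -0.55, adjusted p = 0.106). BN/NHsdMcwi had the highest mean of the 74 strains for Sstr2, and also for Agbl4, a tubulin deglutamylase. Agbl4 differed by -0.50 ± 0.121 (adjusted p = 0.0296, or 0.115 with batch in the model). Within SHR/OlaIpcv replicate 1 alone, Tnfrsf11b was at 8.87 in batch 16 and at 9.06, 8.98 and 9.09 in batches 3, 4 and 6. In the same order Slc38a9 was at 9.23 against 9.30, 9.35 and 9.51. Sstr2 was at 7.89 against 8.03, 7.93 and 7.82, and Agbl4 at 7.99 against 8.18, 8.23 and 8.43. Tnfrsf11b and Slc38a9 thus moved in the direction of their line difference there, and Agbl4 in the opposite one.

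Others among the 45 differed more between the lines, and in these SHR/OlaIpcv differed in the same direction. Adgrg6, an adhesion receptor needed for myelination by Schwann cells, was at 9.72, 8.93 and 9.32 in BN-Lx/Cub and 8.61, 8.31 and 8.37 in BN/NHsdMcwi. It was called without batch (0.90 ± 0.182, adjusted p = 0.00342) and not with it (0.55, adjusted p = 0.229), and SHR/OlaIpcv differed in the same direction by 0.38. Nbl1, an antagonist of bone morphogenetic proteins, was at 10.33, 11.14 and 10.76 against 11.42, 11.55 and 11.54 (-0.76 ± 0.159, adjusted p = 0.00535; with batch -0.58, adjusted p = 0.173; SHR/OlaIpcv -0.38). In both genes BN-Lx/Cub animal 1 was the most distant from BN/NHsdMcwi. Slc2a5, a fructose transporter found in microglia, was at 7.87, 8.26 and 8.05 against 8.60, 8.66 and 8.69 (-0.59 ± 0.126, adjusted p = 0.00695; with batch -0.59, adjusted p = 0.0645; SHR/OlaIpcv -0.14), and BN-Lx/Cub had the lowest mean of all strains. Cdkn1a, which encodes the cell cycle inhibitor p21, was at 7.24, 7.61 and 7.43 against 7.97, 8.21 and 8.24 (-0.72 ± 0.134, adjusted p = 0.000782; with batch -0.49, adjusted p = 0.176; SHR/OlaIpcv -0.29).

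Genes of RT1, the major histocompatibility complex of the rat, encode class I and class II antigen-presenting molecules, and 4 of 34 measured members were called without batch, all lower in BN-Lx/Cub. This list was drawn up after its values were seen, and 0.278% of all genes were called. RT1-A1, a class I gene, was at 8.46, 9.50 and 8.93 in BN-Lx/Cub and 10.00, 10.05 and 10.12 in BN/NHsdMcwi (-1.10 ± 0.261, adjusted p = 0.0283). In the v6 Ensembl table, which holds the same 7 libraries, RT1-A1 differed by -0.25 (adjusted p = 0.465) and RT1-Bb by -0.22 (adjusted p = 0.518), while RT1-Ba differed by -0.88 and passed the test there (adjusted p = 0.0174). In the table of reconstructed genes RT1-Ba differed by -1.26 ± 0.326 and did not pass (adjusted p = 0.176). RT1-Ba and RT1-Bb, the class II alpha and beta chains, differed by -0.91 ± 0.202 and -0.81 ± 0.197 (adjusted p = 0.0137 and 0.0326), and RT1-CE15 by -0.93 ± 0.205 (adjusted p = 0.0115). None was called with batch, where their differences were -0.42 to -0.66, and the SHR/OlaIpcv libraries differed in the same direction, by -0.24 to -0.59. Over the 34 members the median difference was 0.03, with 14 not overlapping, 5 of them higher, against 18.9% of all genes. RT1 genes have near-identical copies, so reads can be split among them, and chromosome 20, which holds RT1, had 7 of 574 genes called (1.22%) and none in both fits.

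Recombinant strains offer other animals in which the founder alleles segregate. Of the 58 genes, 45 differed among the 30 HXB/BXH strains (limma F-test, 5% false discovery rate), or 77.6%, against 3992 of 20859 genes (19.1%). Among the 13 genes the count was 9 (69.2%). The HXB/BXH animals also enter the estimate of spread in the comparison of the lines, and a gene with little spread within strains is called more readily in both, so the share is a description. With the genes called in the fit with batch the share was 48.3%. These strains descend from BN-Lx/Cub and SHR/OlaIpcv and not from BN/NHsdMcwi, and a strain effect among them was not traced to an allele of either line.

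Trim6 had the widest gap between strain means of the 13 genes on the log2 scale, although as a share of the range the gaps of Itga11 (38.2%) and LOC103691073 (41.6%) were wider than its own (35%). In 10 HXB/BXH strains the mean lay between 2.53 and 3.30, and in the other 20 between 4.12 and 4.87, with no strain in the gap of 0.82 between them (R2, the share of the variance that lies between strains, was 0.944). The means of BN-Lx/Cub, 3.87, and SHR/OlaIpcv, 3.61, both fell in this gap, and BN/NHsdMcwi, 5.14, was above every HXB/BXH strain. The SHR/OlaIpcv mean takes in batches in which no HXB/BXH library was made. Its libraries of batches 3, 4 and 6 were at 3.16, 3.36 and 2.95, and those of batches 16 and 17 at 3.35 to 3.52. The place of SHR/OlaIpcv beside the lower set thus depends on the batches taken. Of the 30 strains, 16 lay nearer BN/NHsdMcwi than BN-Lx/Cub. For Itga11, 23 strains lay between 6.80 and 7.25 and 7 between 7.69 and 7.97 (R2 0.842), with BN-Lx/Cub at 6.87, SHR/OlaIpcv at 6.71 and BN/NHsdMcwi at 7.57. For Itga11 both founder means lay with or below the lower set of strains. The SHR/OlaIpcv libraries of batches 3, 4 and 6 were at 7.39, 7.17 and 6.80, and those of batches 16 and 17 at 6.68 to 6.84. Its place thus depends on the batches taken here too. The gaps were placed after the values were seen.

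Acer2 varied from 7.76 to 8.63 among HXB/BXH strains (R2 0.781), with BN-Lx/Cub at 8.53 and BN/NHsdMcwi at 7.86 near the ends of that range. Clca1 varied from 4.92 to 6.17 (R2 0.743), and BN-Lx/Cub, at 6.23, was above all of these strains. R2 was 0.613 for Tnfsf10, 0.555 for Fam227a and 0.548 for Mapk4. A strain effect was not called for LOC100362980, LOC103691073, LOC120097116 and LOC120095489 without batch in the model, and these are the 4 genes in which BN-Lx/Cub had an end position among all strains.

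**Figure D3:**
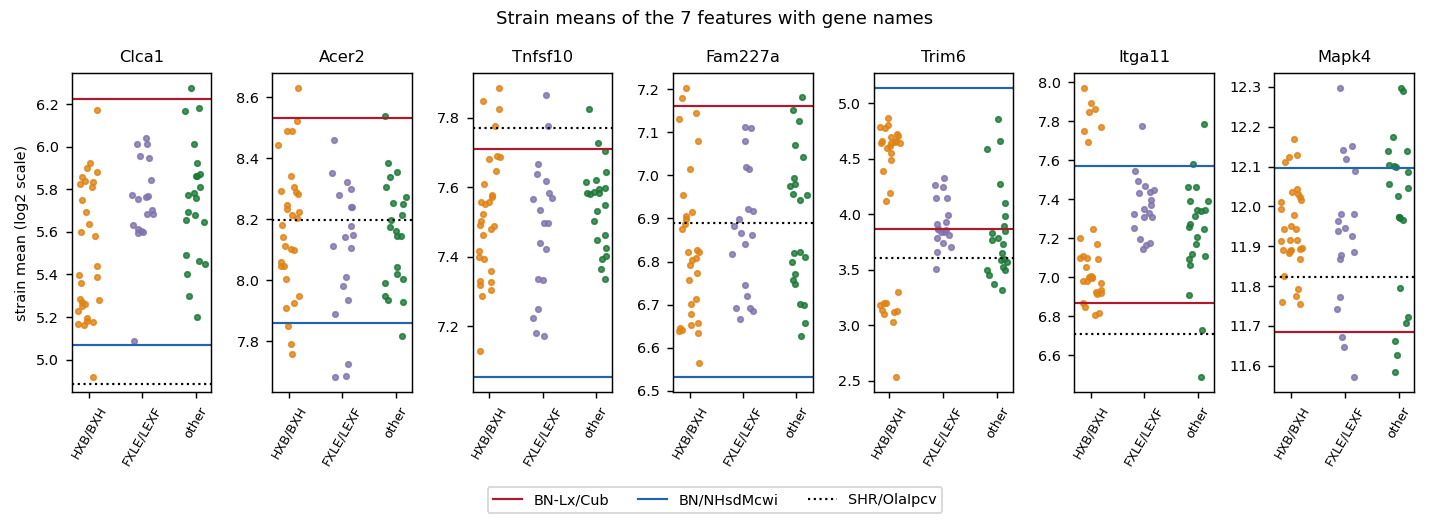
Mean level on the log2 scale of the 7 genes with symbols called in both fits, 1 point per strain in the HXB/BXH, FXLE/LEXF and other inbred strains, with lines at BN-Lx/Cub, BN/NHsdMcwi and SHR/OlaIpcv. In the Trim6 panel the HXB/BXH means fall in 2 groups, 2.53 to 3.30 and 4.12 to 4.87, with the BN-Lx/Cub line between them.

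The count of called genes was set beside that of the other strains of the panel. Against BN/NHsdMcwi, each of the other 52 strains with 3 animals had 287 (BXH2/Cub) to 1038 (LH/MavRrrc) genes called, with a median of 500.5, and BN-Lx/Cub had 58. With batch in the model the 52 counts ran from 140 to 7420, and none was below that of BN-Lx/Cub. The lowest place did not hold without BN-Lx/Cub animal 2, when 328 genes were called, and the count was 160 with animal 3 represented by its batch 6 library. All these comparisons share the BN/NHsdMcwi animals and stand side by side only. By the median absolute difference over genes the order was another: BN-Lx/Cub was at 0.139, against 0.0806 to 0.141 in the other 52 strains, of which 51 were nearer to BN/NHsdMcwi. Without BN-Lx/Cub animal 1, whose library stood apart, this median was 0.0998, and without animal 2 or 3 it was 0.186 or 0.157. The value without animal 1 was close to the median of the other strains, 0.1002. The 2 lines were at opposite ends of the range of all strains in 0 genes. BN/NHsdMcwi lay outside the range of the other 23 classic inbred strains in 23 of the 58 genes (39.7%, against 6.36% of all genes) and BN-Lx/Cub in 18 (31%, against 22.1%). The 58 genes were chosen by the distance between the means of these 2 lines, so these shares are fixed in part by that choice.

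**Figure D4:**
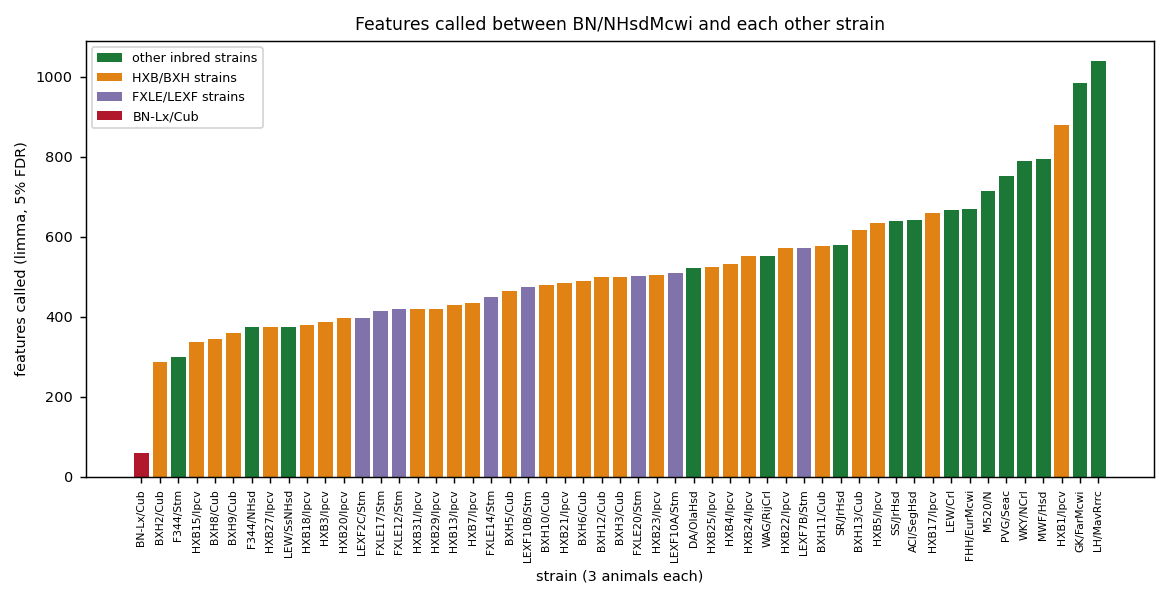
Number of genes called against BN/NHsdMcwi by limma at a 5% false discovery rate, 1 bar for each strain with 3 animals, without batch in the model. The BN-Lx/Cub bar, at 58, is the lowest, and the other 52 lie between 287 and 1038, a range that holds the 328 genes called for BN-Lx/Cub without its animal 2.

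Zbtb16, which carries the luxate variant, did not pass the test. It was at 10.07, 10.55 and 10.40 in BN-Lx/Cub and 10.55, 10.67 and 10.73 in BN/NHsdMcwi, a difference of -0.31 ± 0.118 (adjusted p = 0.198; with batch -0.40, adjusted p = 0.188). The animals of the lines only just failed to overlap, with the highest BN-Lx/Cub animal at 10.549 and the lowest BN/NHsdMcwi animal at 10.554. The lowest BN-Lx/Cub value, 10.073, came from the animal whose library stood apart. Counted from the lowest strain mean, BN-Lx/Cub ranked 24 and BN/NHsdMcwi 69 among all strains. In the table of reconstructed genes the Zbtb16 difference was -0.67 ± 0.163 (adjusted p = 0.11). None of its 10 nearest measured neighbours was called without batch. Htr3a, a subunit of the serotonin-gated ion channel next to it, was at 6.87, 7.45 and 7.15 against 7.64, 7.76 and 7.46 (-0.47 ± 0.125, adjusted p = 0.0736) and was called with batch (-0.60, adjusted p = 0.0478). Drd2, a dopamine receptor 5 genes away, differed by -0.16 ± 0.148 (adjusted p = 0.558). In the window of 101 genes centred on Zbtb16, 0 were called by limma without batch in the model, where 0.278% of all genes were called. Of the 101 genes, 25 had an unadjusted p under 0.05 and 27 did not overlap between the lines, against 18.5% and 18.9% of all genes.

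The brain's cell types and pathways were read through 29 gene lists with 469 measured genes, of which 2 were called, Nr4a3 among the immediate early genes and Cdkn1a among the glucocorticoid-responsive genes, and 3 with batch in the model. Of all genes 0.278% were called. Of 25 interferon-stimulated genes measured, 0 were called, 13 did not overlap and were higher in BN-Lx/Cub (18.9% of all genes did not overlap), and 12 had an unadjusted p under 0.05, all higher (18.5% of all genes). The median difference was 0.32, against 0.04 between SHR/OlaIpcv batches, and the mean level of the list was 7.06 to 7.39 in BN-Lx/Cub and 6.92 to 7.04 in BN/NHsdMcwi. Rsad2, an antiviral enzyme, was at 7.95, 7.92 and 7.90 against 7.43, 7.37 and 7.33 (0.55 ± 0.186, adjusted p = 0.168). Ifit2, which binds viral RNA complexes, was at 8.32, 8.31 and 7.98 against 7.68, 7.65 and 7.60 (0.57 ± 0.164, adjusted p = 0.107). Tnfsf10 is not on this list.

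Of 12 microglia markers measured, 0 were called (0.278% of all genes), and 6 did not overlap, all lower in BN-Lx/Cub (18.9% of all genes). They had a median difference of -0.29 against -0.04 between SHR/OlaIpcv batches. The mean level of the list was 8.88 to 9.03 in BN-Lx/Cub and 9.19 to 9.22 in BN/NHsdMcwi. C1qc, a subunit of the complement factor C1q, was at 8.43, 8.72 and 8.52 against 9.24, 9.03 and 9.14 (-0.58 ± 0.176, adjusted p = 0.128), whereas Csf1r, the receptor on which microglia depend, was at 11.10, 11.73 and 11.45 against 11.42, 11.48 and 11.44 (-0.02 ± 0.107). Slc2a5, lower in BN-Lx/Cub without batch in the model, moved in the same direction as the list. The part of microglial content in that difference was not tested.

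Lists of other tissues, only some of which a brain dissection can carry, held no called gene without batch in the model, against 0.278% of all genes. Their part in the results above was not tested. Over all genes, 18.9% did not overlap between the lines. The mean levels of the olfactory bulb, hindbrain Hox, meninges, and pituitary and pineal lists overlapped between the lines. All 14 choroid plexus markers were measured, and 6 did not overlap, all higher in BN-Lx/Cub (median 0.31, or 0.58 with batch in the model, against -0.24 between SHR/OlaIpcv batches). Of 14 liver genes, 12 did not overlap, all lower (median -0.36, or -0.26 with batch, against -0.35), and 0 had an unadjusted p under 0.05. Of 10 blood genes measured, 3 did not overlap, all higher (median 0.27, or 0.72 with batch, against -0.55). The median of the 12 meninges and collagen genes was -0.22 without batch and 0.19 with it. Immediate early genes, which rise within minutes of neuronal activity or handling, had 8 of 18 members with an unadjusted p under 0.05, all lower, against 18.5% of all genes, and a median of -0.37 that was -0.01 with batch in the model. Their list mean was 8.60, 9.43 and 9.24 in BN-Lx/Cub animals 1 to 3, against 9.32 to 9.50 in BN/NHsdMcwi, so the lines overlapped and animal 1 was the lowest. Nr4a3, an orphan nuclear receptor and the called member, was at 8.20, 8.92 and 8.73 against 9.22, 9.20 and 9.26 (-0.61 ± 0.148, adjusted p = 0.0311; with batch -0.53, adjusted p = 0.169).

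Lists of neurotransmission and housekeeping held no called gene without batch in the model, against 0.278% of all genes. They were 15 GABA-A receptor subunits, 23 glutamate receptors, 26 genes of monoamine systems, 25 neuropeptides, 34 ribosomal proteins and 31 nuclear genes of the respiratory chain. Of the 34 ribosomal proteins, 11 did not overlap and 8 had an unadjusted p under 0.05 (limma), all lower in BN-Lx/Cub, against 18.9% and 18.5% of all genes. Their median difference was -0.11, or -0.26 with batch in the model, against 0.12 between SHR/OlaIpcv batches. Gria2, a subunit of AMPA receptors, was at 14.76, 14.30 and 14.21 in BN-Lx/Cub and 14.14, 14.10 and 14.05 in BN/NHsdMcwi (0.33 ± 0.134, adjusted p = 0.214). Gstm1, a glutathione S-transferase, was at 11.88, 12.03 and 11.96 against 12.30, 12.20 and 12.17 (-0.27 ± 0.105, adjusted p = 0.2). Hspa8, a constitutive chaperone, was at 16.68, 16.53 and 16.61 against 16.67, 16.68 and 16.47 (0.00 ± 0.075), a level at which the lines overlapped.

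**Figure D5:**
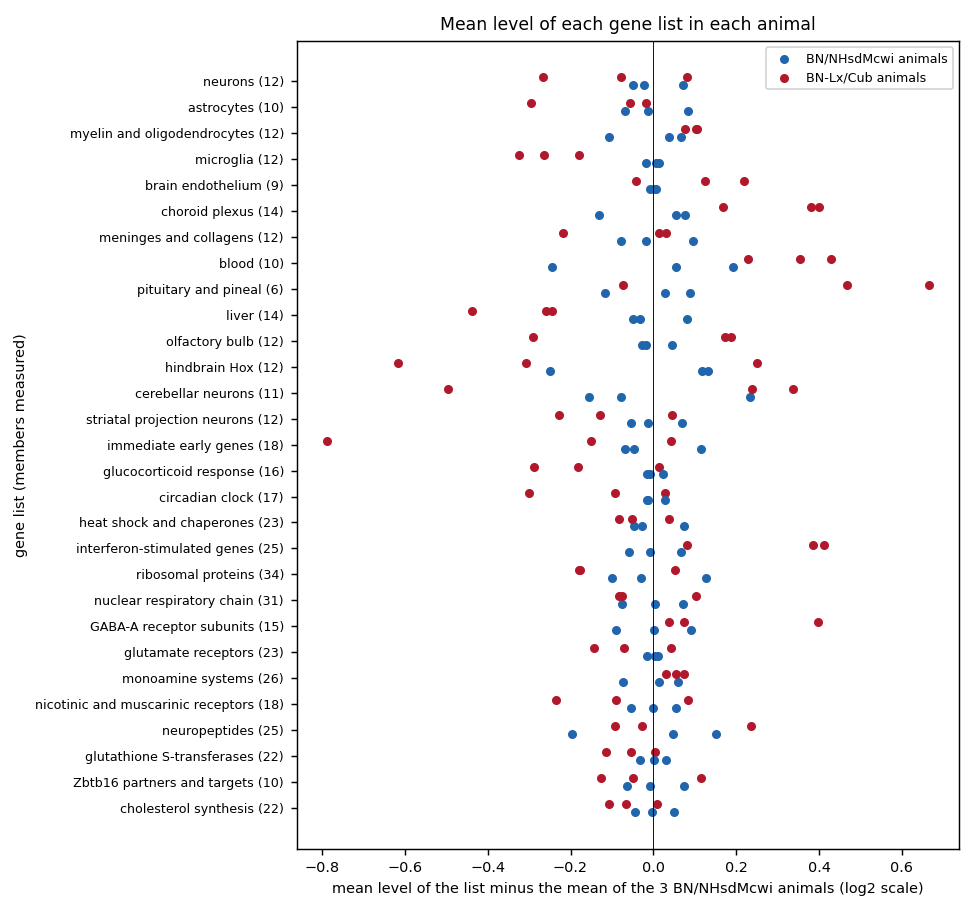
Mean level of each gene list in each animal minus the mean of the 3 BN/NHsdMcwi animals (log2 scale), with the number of genes measured beside each list name. Interferon-stimulated genes and choroid plexus markers lie to the right in the BN-Lx/Cub animals, microglia and liver markers to the left, and BN-Lx/Cub animal 1 is the far point in the immediate early list.

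The fit with batch also called 45 genes that were not called without it, 24 higher and 21 lower in BN-Lx/Cub. All 45 had the same sign in both fits, and 37 had an unadjusted p under 0.05 without batch. They rest on the batch estimates taken from other strains. Mboat1, a lysophospholipid acyltransferase, differed by 0.38 without batch and by 0.75 with it (adjusted p = 0.00203), and by -0.31 between SHR/OlaIpcv batches. Rere, a nuclear co-repressor with arginine-glutamate repeats, differed by -0.38 and -0.68 (adjusted p = 0.00236 with batch), and by 0.30 in SHR/OlaIpcv. Ccn1, a matrix protein induced by growth factors, differed by 0.60 and 1.81 (adjusted p = 0.0099 with batch), and by -0.96 in SHR/OlaIpcv.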

How the data were processed

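The values the authors deposited were treated as log2 levels, from their range and from the transformation the paper's methods give for an earlier table. For the Brown Norway libraries the submitters' processing notes name cutadapt 1.9.1, Bowtie2 2.3.4.3, HISAT2 2.1.0, StringTie 1.3.5, RSEM 1.3.1 and DESeq2, and rn6 for BN-Lx/Cub alone. How the RefSeq gene table was normalized, and its build, are not given in the sources used here. It holds no counts, so depth is unknown and the number of animals limits precision. Positions came from the deposited annotation.

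Libraries of 1 strain and replicate number were averaged to 1 animal (214 libraries, 197 animals, 74 strains), and 73 spike-in features were left out. Differences were tested with limma 3.58.1 (R 4.3.3) on the log2 values of all animals with Benjamini-Hochberg adjustment over 20859 features at 5%. A library-level fit had strain and batch as terms and the animal as a correlated block (correlation 0.204). SHR/OlaIpcv batches were compared the same way. The fit without batch was also run on simulated animals that held no batch differences, as a check of the code.

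Members and gene lists were chosen with earlier results of these data known. The rule for named genes asked for a symbol, a mean at or above 8.32 (the median of all features), a call in both fits with the same sign and no overlap, and added Zbtb16 with 5 neighbours on each side and members of each list (up to 4 called, otherwise the 2 with the highest mean). Other genes were chosen after their values were seen. Names matched RefSeq by symbol for 18407 features, by synonym for 348 and by gene number for 784, and 1320 had no match.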

Additional observations from a re-analysis of the deposited data

How the results depend on the processing

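The table holds no counts, so no depth floor was computed, and 3 animals a line limit what can be called. The 58 genes became 15 in a fit of the 6 animals alone, 24 when features below the median level were left out, 36 or 160 when BN-Lx/Cub animal 3 was represented by its batch 4 or its batch 6 library, 22 in the table of reconstructed genes and 21 in the v6 Ensembl table, which hold the same 7 Brown Norway libraries beside other sets of strains. Leaving out 1 animal gave 20 (without BN-Lx/Cub animal 1) to 328 (without BN-Lx/Cub animal 2), with 23, 26 and 35 without BN/NHsdMcwi animals 1, 2 and 3. Of the 13 genes called in both fits, 4 were called in the 6 animals alone, 4 with features below the median left out (4 of the 13 remained to be tested), 2 of 6 found in the reconstructed genes, 2 of 5 found in v6, and 7 to 12 when 1 animal was left out of the fit without batch. With an animal left out of both fits, an alternative chosen after seeing the data, 6 to 84 genes were called in both, 84 without BN-Lx/Cub animal 2. The 3 genes called between SHR/OlaIpcv batches became 12 in a fit of those libraries alone. The 0 genes of the contrast between both differences became 7 over all libraries and 0 to 28 when 1 animal was left out (28 without BN-Lx/Cub animal 1). The share of called genes with an HXB/BXH strain effect, 77.6%, was 48.3% for the genes called with batch. Direction reversed for LOC102550225 with batch (-0.263) and with the batch of the sample title (-0.292), for LOC108349783 in the same fits (-0.032 and -0.004), for LOC120099223 in the reconstructed genes (-0.124) and for LOC100362980 in v6 (-0.07). The cause of these changes was not tested. Quantile normalization gave 49 genes, centring on medians 56, a trended robust fit 63 and the title batch 55, all within 1.5 times the count. With a replicate block 66 genes were called, all 58 among them. The numbers did not pair the animals, since same-numbered animals correlated at 0.463, 0.339 and 0.02, and not every animal correlated best with its own number.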
